A study of Mus musculus with 71 samples.

Results

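Mutant and wild-type progenitors were compared at day 7 of differentiation, separately in each of 3 sorted populations of the ventral spinal cord. The comparison rests on 16 of the 71 libraries in the series. They are all libraries labelled day 7 in p0-p1, p2 and pMN except replicate 3 of both pMN groups, whose values go with the other genotype as described below. The groups held 3 MUT and 3 WT libraries of p0-p1, 3 and 3 of p2, and 2 and 2 of pMN. Every group was NFIAn, read here as cells sorted as negative for NFIA, so the NFIA fraction does not differ between the genotypes on this day, unlike on day 11, where MUT libraries were NFIAn and WT libraries NFIAp.

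All groups came from mouse embryonic stem cells grown in N2B27 medium with bFGF, then with the GSK3 inhibitor CHIR99021 from day 2, with retinoic acid (RA) and the Smoothened agonist SAG from day 3, and with SAG alone from day 5. The labels name the genotypes only WT and MUT. Neither the mutated gene nor the number of mutant clones is given in the sources used here, and the labels do not say whether replicates were separate cultures, and p-values here speak only of variation among the libraries at hand, part of which may be technical. Accessibility was measured by CaTS-ATAC, in which dead cells are removed, live cells are fixed, their open chromatin is tagged with the Tn5 transposase, and cells are then stained for intracellular marker proteins and sorted.

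The ventral neural tube is patterned by a gradient of Sonic hedgehog signalling, which SAG replaces in culture. Progenitor domains form at set positions along it: p0 and p1 give rise to V0 and V1 interneurons, p2 gives rise to V2 interneurons, and pMN, marked by Olig2, gives rise to motor neurons and later to oligodendrocyte precursors. NFIA is a transcription factor known from the later switch of such progenitors to the production of glia. Open chromatin marks promoters and enhancers that transcription factors can reach, and each interval of the table is a region where such openness was found.

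The intervals carry numbers only, from Interval_1 to Interval_155738, with no positions or gene names. They are therefore described by number, and neither the marker genes of the populations nor the mutated gene were analysed here. That intervals with adjacent numbers lie near each other in the genome is not stated in the file. The 16 libraries held 20034731 to 31182405 reads in intervals, with a median of 23301110, and the 2 left out lay within this range. Values are reads divided by 1 scaling factor per library, called normalised reads below. An interval at the median level of 31.8 normalised reads has a counting error of 17.7%, and reads without molecular identifiers are not independent molecules, so this covers counting error only. Across the 16, 16.8% to 17.5% of the reads of each MUT library fell in the 1% of intervals with the most reads. In each WT library except p2 replicate 2 it was 17.9% to 18.6%. That WT library stood apart, with 16.4%, the most reads, and 182 intervals without a read where the others had 776 to 1723. A change in the share of cells in which an interval is open and a change in openness per cell cannot be told apart in these bulk libraries.

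The labels were first checked with intervals chosen in other libraries. In the 15 MUT and 14 WT NFIAn libraries of days 5 and 9 there were 11 intervals whose values did not overlap between the genotypes and whose means lay at least 4-fold apart, 5 higher in MUT and 6 higher in WT. In the 8 MUT libraries of day 7 the 5 MUT-high intervals summed to 275 at the lowest, 316 at the median and 352 at the highest, in normalised reads. In the 8 WT libraries the same sum was 49.8 to 78.1. The 6 WT-high intervals summed to 25.1 to 39.5 in MUT and to 343 to 550 in WT, so neither sum overlapped between the genotypes. Of the 11 single intervals, 1 overlapped. Among the 11 are Interval_112350, Interval_153726 and Interval_88685, described below, whose day 7 values were not used to choose them for this check. The library labelled MUT pMN replicate 3 had sums of 35.9 and 392, among or near the WT libraries, and the library labelled WT pMN replicate 3 had 325 and 29.4, within the MUT range. Both were left out of every comparison below unless it is said that they were put back.

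**Figure D1:**
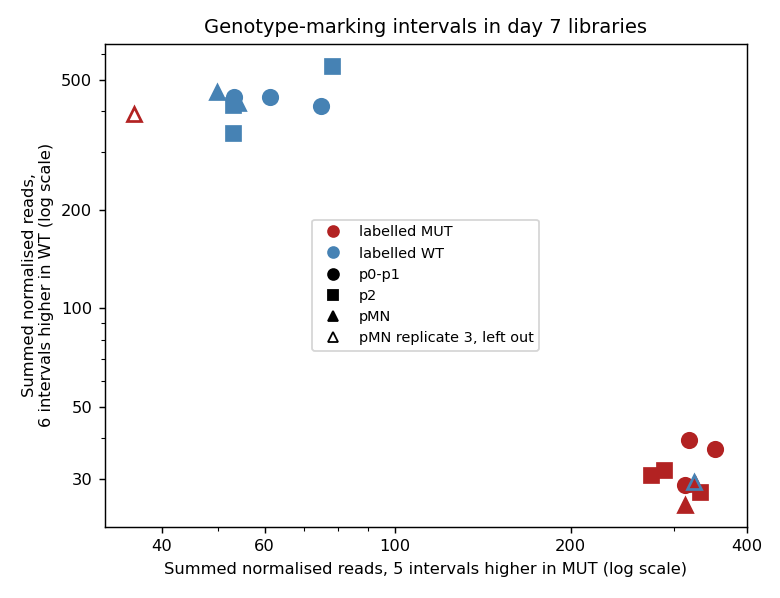
Summed normalised reads of 5 intervals higher in MUT (x axis, log scale) against those of 6 intervals higher in WT (y axis, log scale) in each of the 18 day 7 libraries; colour is the labelled genotype, shape the population, and open triangles are the 2 libraries left out. The MUT libraries lie at 275 to 352 on the x axis and the WT libraries at 49.8 to 78.1, and each open triangle lies with the genotype it is not labelled with.

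The clearest single difference was a run of 5 intervals, Interval_143053 to Interval_143057, with no read at all in the 8 MUT libraries of day 7. The 8 WT libraries held 214 to 519 reads in the run. In normalised reads the run summed to 276 ± 43.1 (SD, n = 8) in WT. With 3 reads taken as the upper limit that a count of 0 allows in 1 library, the run was at least 76.8-fold lower in MUT. Interval_143054 is the strongest of the 5. It was at 111, 109.5 and 115 normalised reads in WT p0-p1, at 88.8, 159 and 101 in WT p2, at 97.6 and 119 in WT pMN, and at 0 in every MUT library, and so at least 31.3-fold lower against the same limit. The other 4 intervals had WT means of 27.0, 38.5, 42.1 and 55.9 normalised reads. The library labelled WT pMN replicate 3 had 0 reads in the run and the one labelled MUT pMN replicate 3 had 213. These intervals were among the WT-high intervals that served for the label check, and which gene they belong to, if any, is not given by the table.

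In p0-p1, 461 of 155734 intervals tested differed between the genotypes, 368 of them higher and 93 lower in MUT. An interval was called when limma's adjusted p over all intervals was under 0.05 and the change was at least 1 on the log2(value + 5) scale. These calls are 0.296% of all intervals, 0.236% for those higher and 0.0597% for those lower in MUT. Without the size threshold 3661 passed, 1557 higher and 2104 lower, so the excess of higher calls holds only among changes of at least 1. The median difference over all intervals was 0.04 on the log2 scale, with quartiles of -0.15 and 0.26. Most calls were near the threshold, with a median size of 1.10 on the log2 scale. The share of calls that were higher in MUT, 79.8%, was 53.1% after quantile normalization and 90.3% with equal library totals. Without MUT p0-p1 replicate 2 the calls fell to 290.

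In p2, 425 intervals were called (0.273%), 318 higher (0.204%) and 107 lower (0.0687%) in MUT. The median of all intervals was 0.03 and that of the sizes called 1.10, again on the log2 scale. Here 74.8% of calls were higher in MUT, against 55.7% after quantile normalization and 79.6% with equal totals. Without the size threshold 2883 passed, 1276 higher and 1607 lower, so here too the excess of higher calls is limited to changes of at least 1. Without MUT p2 replicate 2 there were 253 calls.

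In pMN, with 2 libraries on each side, 171 intervals were called (0.11%), 120 higher (0.0771%) and 51 lower (0.0327%) in MUT. With the replicate number as a block, which the check of pairing allows, 760 were called in pMN, 591 higher and 169 lower, and with the number as a block within each genotype 271, 200 higher and 71 lower. The share higher was 70.2%, 43.4% after quantile normalization and 83.2% with equal totals, so the excess of higher calls in pMN turns over with the scaling. With day 7 libraries only, 46 were called, 22 higher and 24 lower, so the excess was lost there too. Leaving out 1 pMN library leaves 1 in its group. The count fell without MUT replicate 1, MUT replicate 2 or WT replicate 1, but not without WT replicate 2. The excess of higher calls turned over without MUT replicate 2. It was nearly gone without MUT replicate 1 or WT replicate 1, and was kept without WT replicate 2. Without the size threshold 437 passed, 175 higher and 262 lower. With replicate 3 of both groups put back under their labels limma called 0, with 4706 intervals at an unadjusted p under 0.05. The smaller count in pMN than in p0-p1 or p2 goes with fewer libraries and is not a test of a smaller difference. No difference in response among the populations was called. Limma's F-test of equal MUT minus WT differences called 0 intervals (0%), with 3390 (2.18%) at an unadjusted p under 0.05. EdgeR called 0 with 2656 at that p. Limma also called 0 with the replicate block and with the block within genotype, with 6948 and 7729 intervals at that p. The number at that p thus moved with how replicates were treated, and a count of 0 does not show equal responses.

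Over the mean of the 3 populations, 188 intervals were called (0.121%), 144 higher (0.0925%) and 44 lower (0.0283%) in MUT. Without the size threshold 19624 passed, 11616 higher and 8008 lower. The excess of higher calls is thus not limited to changes of at least 1 here. Libraries with the same replicate number deviate together, which this fit does not model. An unadjusted limma p under 0.05 was reached by 40005 intervals, 49339 with the replicate block and 29074 with the block within genotype. SEs and limma p-values for the mean thus depend on how replicates are treated. Among calls of at least 1, the share higher was 76.6%, 52.3% after quantile normalization and 85.7% with equal totals. With a pseudocount of 20, which shrinks the changes of low intervals most, 41 were called, 18 higher and 23 lower, so the excess of higher calls turns over there. This count was 44 with replicate 3 of both pMN groups put back. The intervals that were lower lay at higher levels: their median was 95.2 normalised reads, against 35.3 for those higher and 31.8 for all. In the 20% of intervals with the most reads, 11 were higher and 18 lower, and there the median difference of all intervals was -0.08, -0.01 and -0.07 for p0-p1, p2 and pMN, while it was above 0 in each lower 20% of intervals in every population. This tilt moves with the smaller share of reads in the strongest intervals of MUT libraries given above, whose part in the counts was not tested.

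Of the intervals higher in MUT, Interval_112350 had the largest change in each population. It was at 104, 159 and 165 normalised reads in MUT p0-p1, 113, 127 and 154 in MUT p2, and 143 and 166 in MUT pMN. In WT it was at 12.3, 11.7 and 13.3, at 5.41, 10.1 and 8.84, and at 9.18 and 9.54. Every MUT library was thus far above every WT library, and the mean change was 3.30 ± 0.14 (SE) on the log2 scale, with a limma adjusted p of 4.13e-28. The WT level is low but above 0, and it was 4.28 on day 5 and 4.22 on day 11.

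Interval_112341, close to it in number, was the next in p0-p1. It held 90.9, 84.9 and 98.3 normalised reads in MUT p0-p1 and 24.5, 23.4 and 16.4 in WT p0-p1. In p2 the MUT libraries had 88.0, 104 and 88.6 and the WT libraries 22.7, 31.1 and 32.0, and in pMN they had 85.9 and 95.2 against 26.4 and 27.6. The genotypes did not overlap, and the mean change was 1.67 ± 0.12 (SE) on the log2 scale, with a limma adjusted p of 6.56e-17.

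Interval_153726 and Interval_155718 showed the same in all populations. Interval_153726 was at 119.7, 109 and 87.5 normalised reads in MUT p0-p1 against 31.9, 17.0 and 29.8 in WT p0-p1, at 106, 82.6 and 72.6 against 32.5, 39.1 and 28.7 in p2, and at 120.5 and 96.9 against 27.5 and 23.3 in pMN. Its mean change was 1.67 ± 0.15 (SE) on the log2 scale. Interval_155718 ranged from 82.2 to 175 in MUT and from 25.7 to 47.6 in WT, a mean change of 1.70 ± 0.17 (SE). Both were past the threshold in each population, and MUT lay above WT in every library.

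Other intervals were higher by similar amounts with more spread. Interval_30098 was at 33.1 to 71.8 normalised reads in MUT and 12.3 to 31.9 in WT, with no overlap, and rose by 1.39 ± 0.18 (SE) on the log2 scale over the mean. Interval_155719, next to Interval_155718 in number, was at 41.9 to 82.5 in MUT and 15.9 to 32.5 in WT. Interval_144 rose by 1.63 ± 0.30 in p0-p1, where MUT libraries had 35.5, 74.3 and 101 and WT libraries 15.9, 14.9 and 22.6. It was also past the threshold in p2, while in pMN its difference was 1.02 with a limma adjusted p of 0.253. Interval_40512 rose by 1.60 ± 0.28 in p2, from 65.0, 27.5 and 24.3 in WT to 176, 121 and 75.8 in MUT.

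A pair of intervals named in 1 population each had lost or turned their difference by day 11. Interval_56213 rose by 1.57 ± 0.24 (SE) in p2, where MUT libraries had 61.7, 59.9 and 55.5 normalised reads and WT libraries 8.66, 26 and 18.8. Over the mean of the populations it was higher in MUT by 0.34 on day 5 and by 1.02 on day 9, and on day 11 the difference was -1.53, where WT stood at 267 and MUT at 85.0 normalised reads. Interval_126441 rose by 1.69 ± 0.32 in pMN, with 42.4 and 64.3 in MUT against 5.74 and 24.4 in WT, and its difference on day 11 was -0.05. On day 11 the NFIA fraction differs along with the genotype, and the 2 cannot be told apart there.

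Of the named intervals lower in MUT but not absent, Interval_88685 had the largest change in p0-p1, p2 and the mean of the populations. Its pMN change of -2.50 on the log2 scale came after those of Interval_21677 and Interval_21676, at -2.71 and -2.69. WT libraries of p0-p1 had 154, 185 and 143 normalised reads, those of p2 167, 175 and 106, and those of pMN 169 and 184. MUT libraries had 28.8, 37.2 and 39.5, then 27.4, 31.0 and 32.0, then 29.0 and 25.1. All MUT libraries lay below all WT libraries, and the mean change was -2.22 ± 0.13 (SE) on the log2 scale, with a limma adjusted p of 1.57e-21.

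The 3 consecutive numbers Interval_21675 to Interval_21677 were lower together. The strongest, Interval_21676, is a highly accessible interval in WT, with 1256, 1035 and 914 normalised reads for p0-p1, 1267, 1079 and 915 for p2, and 1176 and 1099 for pMN. MUT libraries of p0-p1 had 224, 311 and 416, those of p2 157, 297 and 431, and those of pMN 136 and 217. MUT stayed below WT throughout, at 136 to 431, and the mean change was -2.14 ± 0.24 (SE) on the log2 scale. Only relative to their level did the MUT libraries vary more. Their SDs for p0-p1, p2 and pMN were 96.1, 137 and 57.3 around means of 317, 295 and 177. In WT the SDs were 173, 176 and 54.7 around means of 1068, 1087 and 1138. Interval_21677 changed by -2.05 ± 0.25 and Interval_21675 by -1.72 ± 0.23, with no overlap between the genotypes in any population.

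Interval_155738, the last of the table, was at 778 to 1197 normalised reads in WT and 277 to 469 in MUT, and changed by -1.47 ± 0.10 (SE) on the log2 scale over the mean. Interval_19494 was at 157 to 318 in WT and 47.7 to 122 in MUT, a change of -1.54 ± 0.18. Both were past the threshold in all 3 populations by limma's adjusted p, Interval_19494 in pMN at 0.0417.

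**Figure D2:**
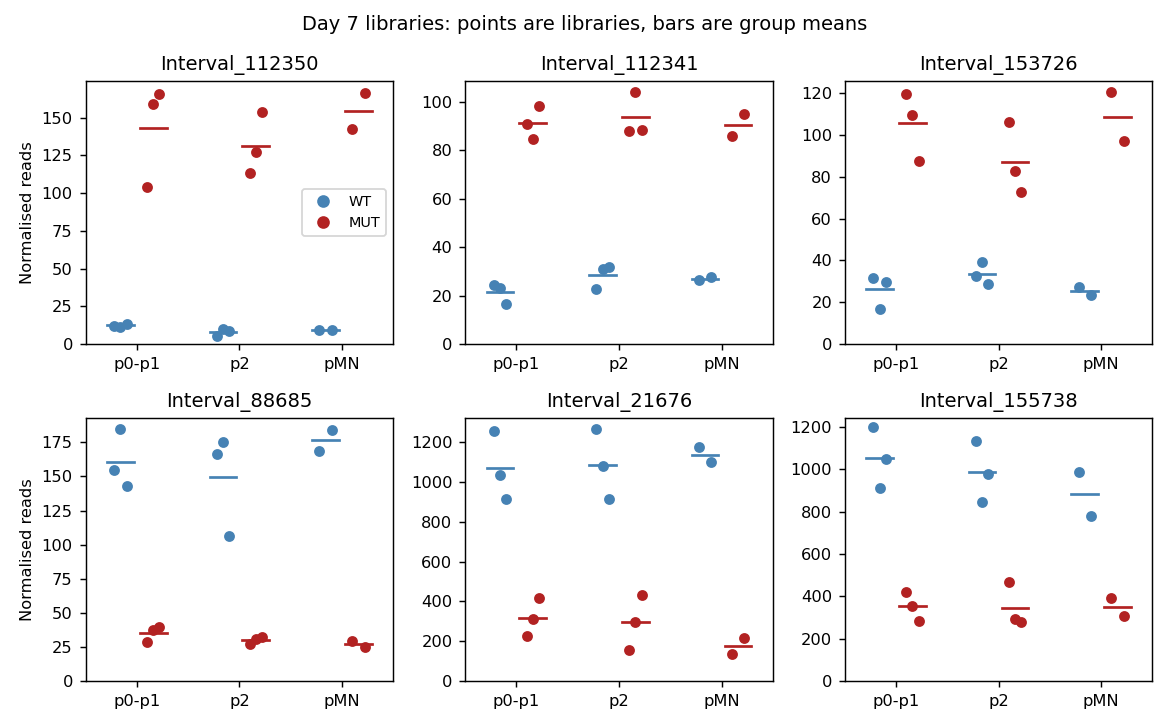
Normalised reads (y axis, starting at 0) of 6 named intervals in each day 7 library of p0-p1, p2 and pMN (x axis); points are libraries, blue for WT and red for MUT, and bars are group means. In each panel every MUT library lies on one side of every WT library of the same population, for example 104 to 166 in MUT against 5.41 to 13.3 in WT for Interval_112350.

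The populations shared the direction of change more than the identity of the calls. Of 692 intervals called higher in at least 1 population, 600 were called in 1 only, 70 in 2 and 22 in all 3, and of 193 called lower the counts were 158, 12 and 23. No interval was called in opposite directions. Of the 368 called higher in p0-p1, 21.2% were called higher in p2 and 8.42% in pMN. The converse shares were 24.5% of those in p2 and 25.8% of those in pMN. The differences in p0-p1, p2 and pMN share no library, but their calls share 1 estimate of spread per interval. Same-numbered libraries also deviate together, so the populations are not independent of each other. The 368 had a median difference of 0.71 in p2, with 94.0% above 0, and of 0.63 in pMN, with 90.8% above 0, where all intervals had medians of 0.03 with 54.1% and 53.4% above 0. The 93 called lower in p0-p1 had medians of -0.68 in p2 and -0.72 in pMN, with 94.6% and 93.5% below 0. Over all 155734 intervals the difference in 1 population correlated with that in another at Pearson's r of 0.44 to 0.49, a description across intervals that are not independent replicates and that share depth and table order.

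The same intervals differed in the same direction on other days. The 144 intervals higher on day 7 over the mean of the populations had a median MUT minus WT difference of 0.71 on day 5, above 0 in 142 of 144, and of 0.89 on day 9, above 0 in 144 of 144. On day 11 it was 0.59, above 0 in 121. The 44 lower intervals had medians of -1.04 on day 5, -1.24 on day 9 and -1.34 on day 11, below 0 in 44, 44 and 43. All intervals had medians of 0.03, 0.07 and 0.05 on those days. The differences on days 5 and 9 were not used to choose these intervals, but libraries of all days share 1 estimate of spread per interval. This is a description with no test. Part of each day 7 median comes from the choice itself, since the intervals had to pass the threshold there.

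**Figure D3:**
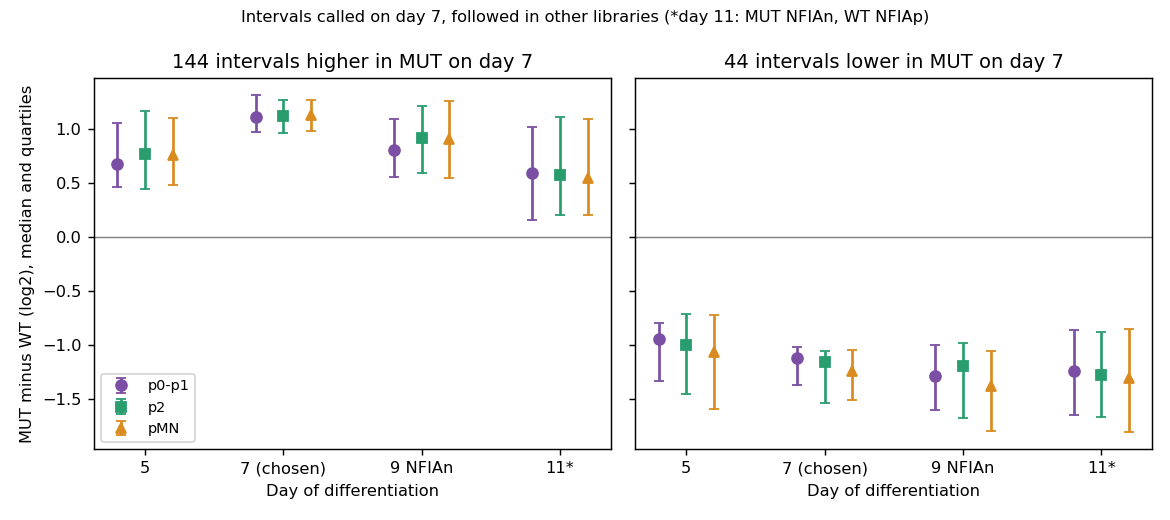
MUT minus WT difference (log2 scale, median with quartiles as bars) on days 5, 7, 9 and 11 in p0-p1, p2 and pMN, for the 144 intervals called higher (left) and the 44 called lower (right) on day 7 over the mean of the populations. The medians keep their sign on every day, with 0.71 on day 5 and 0.89 on day 9 over the mean of the populations for those higher; day 11 compares MUT NFIAn with WT NFIAp.

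Seen from the other days, intervals that already differed on day 5 differed on day 7. In p0-p1, 267 intervals were called higher in MUT on day 5, and their median on day 7 was 0.51, with 91.8% above 0. In p2 there were 171 with a median of 0.65, and in pMN 164 with 0.60. Those called lower on day 5 numbered 61, 35 and 40, with day 7 medians of -0.55, -0.97 and -1.12. Intervals called on day 9 in the same populations had day 7 medians of 0.53, 0.57 and 0.49 when higher and -0.36, -0.28 and -0.29 when lower. The much longer lists lower in MUT on day 11, of 10226, 12227 and 13174 intervals, had day 7 medians of -0.01, -0.03 and 0.01, against 0.03 to 0.04 for all intervals. The lists higher in MUT on day 11, of 1832, 3958 and 5169 intervals, had day 7 medians of 0.25, 0.23 and 0.21. The lists lower on day 11 thus lay close to all intervals on day 7, while those higher on day 11 were mostly above 0, in 76.7%, 76.2% and 73.7% of their number.

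Intervals that close with time in WT were higher in MUT on day 7. In p0-p1, 19178 intervals fell in WT between day 5 and day 9, and on day 7 their median MUT minus WT difference was 0.22, with 75.8% above 0 and 137 called higher against 5 called lower. In p2, 20667 such intervals had a median of 0.18, with 71.0% above 0 and 138 called higher against 9 lower. In pMN, 22781 had a median of 0.19, with 71.4% above 0 and 52 called higher against 3 lower. The median stayed above 0 with quantile normalization (0.15, 0.13 and 0.13) and with equal totals (0.28, 0.19 and 0.24). After the median of intervals in the same 20% band of level was subtracted it was 0.17, 0.14 and 0.14. The calls were 0.74%, 0.71% and 0.24% of the fallers, against 0.30%, 0.27% and 0.11% of all intervals. Of all intervals 54.5%, 54.1% and 53.4% were above 0. Their calls were 368 higher against 93 lower in p0-p1, 318 against 107 in p2 and 120 against 51 in pMN.

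Intervals that rise in WT over the same days moved little. The 25907 of p0-p1 had a day 7 median of -0.02, the 22334 of p2 of 0.01 and the 16753 of pMN of -0.04, and 47.2%, 51.5% and 45.5% were above 0. Quantile normalization put all 3 below 0 and equal totals put all 3 above 0, where the medians of all intervals moved too. Beside all intervals they were lower under each scaling, at 0.037, 0.028 and 0.017 against 0.095, 0.044 and 0.081 with equal totals. After the median of the same 20% band of level was subtracted they were -0.07, -0.03 and -0.07. Within a genotype the libraries' medians over these risers had SDs of 0.069, 0.10 and 0.11, so without rescaling they differed from all intervals by less than 1 such SD. In p0-p1, 21 of the risers were called higher and 42 lower in MUT, in p2 9 and 18, and in pMN 2 and 13. These calls were 0.24%, 0.12% and 0.090% of the risers, against 0.30%, 0.27% and 0.11% of all intervals. Whether these lists follow a shift in time between the genotypes was not tested.

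Intervals that differed between populations in WT on day 5 had day 7 medians above that of all intervals, on both sides. The amounts in part lie near the spread of libraries. The 16559 intervals higher in WT pMN than in WT p0-p1 on day 5 had day 7 medians of 0.14, 0.11 and 0.20 for p0-p1, p2 and pMN. The 7134 higher in WT p0-p1 had 0.18, 0.14 and 0.10. All intervals had 0.04, 0.03 and 0.03. Within a genotype the libraries' medians over the first list had SDs of 0.065, 0.10 and 0.036 and over the second of 0.064, 0.079 and 0.068, so the first list in p2 and the second in pMN exceeded all intervals by no more than about 1 such SD. All 6 medians stayed above 0 with quantile normalization, at 0.04 to 0.14 where all intervals were at -0.003, -0.002 and -0.003, and with equal totals, at 0.13 to 0.26 where all intervals were at 0.095, 0.044 and 0.081. How many of these intervals are also among those that fall with time in WT was not counted. The same lists drawn on day 9 NFIAn were less even. The 2963 intervals higher in WT pMN had day 7 medians of 0.12, 0.10 and 0.15. The 9682 higher in WT p0-p1 had 0.026, 0.074 and 0.057. All intervals had 0.037, 0.029 and 0.029, so in p0-p1 the second of these lists lay below all intervals.

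A different pattern ran along the numbers of the table. Windows of 200 consecutive intervals whose median differed from that of all intervals by at least 0.15 in the same direction on day 5 and on day 9 formed 31 runs in 7 stretches, with 17150 intervals (11.0%). The windows were chosen without the day 7 libraries. The longest stretch, numbers 18702 to 29301 with 8600 intervals in its runs, was shifted on day 7 by -0.19 on the log2 scale relative to all intervals, and by -0.22, -0.24 and -0.20 on days 5, 9 and 11. Numbers 135105 to 143554, with 6550 intervals, were shifted by -0.20 on day 7. Numbers 40052 to 41151, with 1100 intervals, were shifted by 0.28. These shifts are relative to all intervals. With a pseudocount of 5 the scaling of whole libraries does not cancel fully, and its part in the shifts was not tested.

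The shifts appeared in every population and separated the libraries. In the longest stretch the day 7 shift for p0-p1, p2 and pMN was -0.21, -0.22 and -0.17. Set against the mean of their population, the MUT libraries of p0-p1 lay there at -0.08, -0.11 and -0.14, those of p2 at -0.05, -0.11 and -0.16, and those of pMN at -0.07 and -0.09. WT libraries lay at 0.07, 0.14 and 0.11, at 0.07, 0.16 and 0.10, and at 0.05 and 0.12. The genotypes did not overlap in any population, nor did they in the other 2 long stretches. In the stretch of numbers 135105 to 143554, replicates were uneven in both genotypes. MUT lay at -0.18, -0.12 and -0.01 in p0-p1 and at -0.17, -0.11 and -0.05 in p2, and WT at 0.05, 0.12 and 0.14 and at 0.06, 0.12 and 0.13. Same-numbered libraries thus took the same order in both genotypes and both populations. The library labelled MUT pMN replicate 3 lay at 0.07 in the longest stretch and the one labelled WT pMN replicate 3 at -0.14, again with the other genotype.

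**Figure D4:**
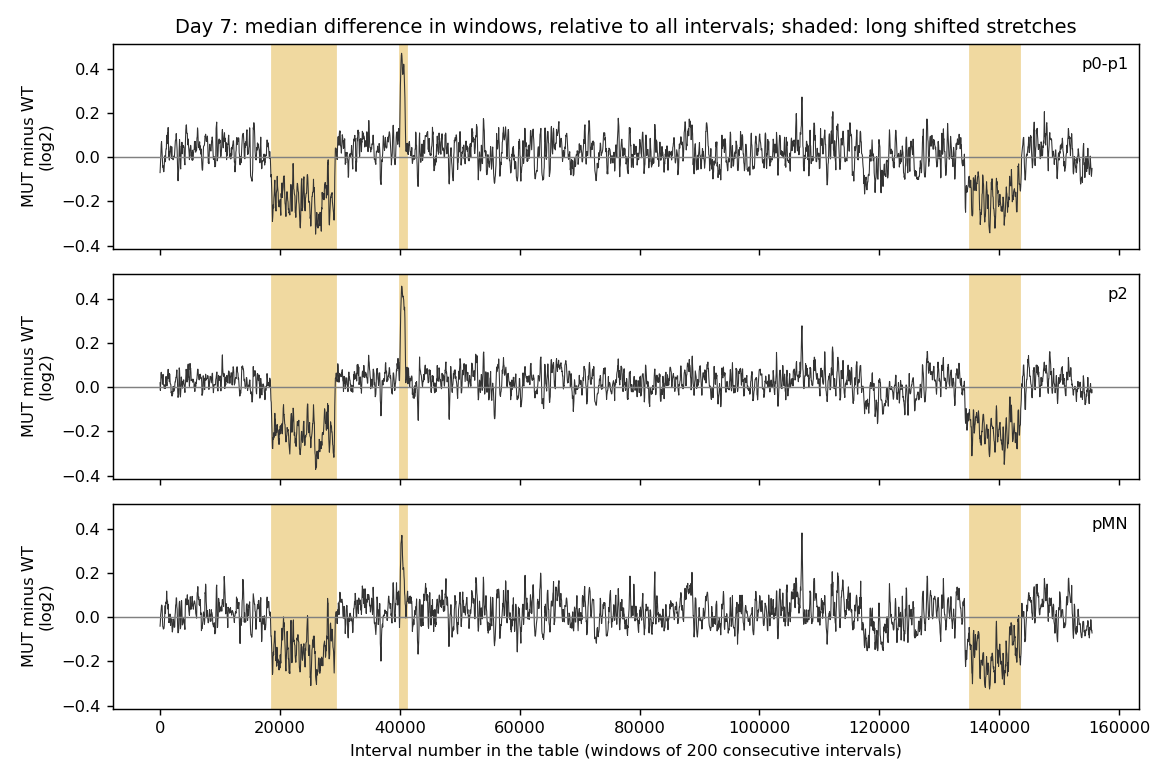
Median MUT minus WT difference on day 7 (y axis, log2, relative to the median of all intervals) in windows of 200 consecutive intervals along the interval number of the table (x axis) in p0-p1, p2 and pMN; shading marks the 3 stretches with at least 1000 intervals. Of the 209 windows within numbers 18702 to 29301, those below 0 number 209 for p0-p1, 209 for p2 and 203 for pMN, and of the 166 within 135105 to 143554 they number 166, 166 and 165; all 19 within 40052 to 41151 lie above 0 in each population. Single windows elsewhere reach similar values.

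The stretches held 168 of the 885 intervals called in any population (19.0%), against 11.0% of all intervals. That excess does not come from the longest stretches: numbers 18702 to 29301 held 41 of them, 0.477% of its intervals, and numbers 135105 to 143554 held 37, or 0.565%, where 0.568% of all intervals were called in any population. Numbers 40052 to 41151 held 58, or 5.27%, and Interval_40512 is one. Among them 30 were called higher in p0-p1 (2.73%) and 31 in p2 (2.82%), against 0.236% and 0.204% of all intervals. In the longest stretch the calls were mostly lower in MUT, 18 in p0-p1 (0.209%) and 25 in p2 (0.291%) against 0.0597% and 0.0687% of all intervals, and 2 and 1 were higher. Interval_21676 and Interval_19494 are among its intervals. The run of 5 absent intervals lies in numbers 135105 to 143554. Interval_112350 and Interval_112341 lie in a short stretch of 250 intervals, numbers 112205 to 112454. It was shifted by 0.12 and held 14 called higher in p0-p1 (5.6%), against 0.236% of all intervals. With the stretches removed and the rest fitted again, 292 intervals were called in p0-p1, 277 in p2, 78 in pMN and 139 over the mean. Calls also lay near each other in number: 34 of the 188 called over the mean (18.1%) stood in 13 groups with steps of at most 3 numbers, a grouping chosen after the values were seen.

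Between day 5 and day 7 the MUT minus WT difference changed at few intervals. Over the mean of the populations, limma called 5 intervals (0.00321%), 2 with a higher and 3 with a lower difference on day 7, and edgeR called 0, with 11247 and 10271 at an unadjusted p under 0.05. With the replicate block 58 were called, and with the block within genotype 0, with 4893 intervals at an unadjusted p under 0.05. Interval_93241 went from a difference of 0.23 on day 5 to 1.50 on day 7. It was at 48.8, 39.3 and 37.2 normalised reads in MUT p0-p1 against 7.35, 18.1 and 22.6 in WT p0-p1, at 37.7, 34.1 and 21.4 against 4.33, 8.68 and 2.21 in p2, and at 58.0 and 58.5 against 19.5 and 18.0 in pMN, with no overlap in any population. On day 9 the difference of Interval_93241 was 0.41, lower than on day 7 (limma adjusted p = 0.0424). On day 11 it was -0.73. Interval_91431 went from 0.63 on day 5 to -0.48 on day 7, and was at 0.27 on day 9 and 0.77 on day 11. Its mean in WT was 7.96 normalised reads on day 5 and 110.0 on day 9. The other 3 were Interval_40273, Interval_137675 and Interval_141940. These calls rest on single libraries: there were 0 without WT pMN replicate 1, and 1 each without MUT p2 replicate 1, MUT pMN replicate 1, WT p2 replicate 1 or WT p2 replicate 3. There were 2 without MUT p0-p1 replicate 3, 3 without MUT p0-p1 replicate 1, 8 without WT p2 replicate 2, 9 without WT p0-p1 replicate 3 and 12 without WT pMN replicate 2.

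Between day 7 and day 9 more changed, and mostly one way. Limma called 239 intervals (0.153%), 24 with a higher and 215 with a lower MUT minus WT difference on day 9, and 430 with the replicate block, 91 higher and 339 lower. With the block within genotype there were 123, 3 higher and 120 lower, and edgeR called 159, 31 higher and 128 lower. This comparison and the one with day 5 share the day 7 libraries. The 215 had a median difference of -0.06 on day 7 and -1.49 on day 9, values that the choice used. Days 5 and 11 entered this choice through the shared estimate of spread, not through their differences. The median difference of the 215 was -0.02 on day 5 and -2.26 on day 11. It was below 0 in 214 of 215 on day 11, where genotype and NFIA fraction change together. In WT their median level was 4.41 on the log2(value + 5) scale on day 7, 6.08 on day 9 and 8.11 on day 11. In MUT it was 4.36, 4.47 and 5.74.

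The 5 with the largest change among those at or above the median level, a rule set after the values were seen, show the state of such intervals on day 7. Interval_103717 was at 8.87, 8.49 and 9.59 normalised reads in MUT p0-p1 and 13.5, 6.38 and 11.3 in WT p0-p1, at 8.0, 10.3 and 12.8 against 11.9, 12.3 and 4.42 in p2, and at 7.81 and 8.35 against 10.3 and 15.9 in pMN. The genotypes overlapped in p0-p1 and p2, and all 16 values were low. On day 9 its mean was 174 normalised reads in WT and 10.8 in MUT, and its difference was lower than on day 7 by -3.30 ± 0.23 (SE, limma adjusted p = 3.37e-16). Interval_89987 already differed in pMN on day 7, with 3.35 and 5.01 in MUT against 17.2 and 26.5 in WT, a difference of -1.53 with a limma adjusted p of 0.0192. In p0-p1 and p2 its genotypes overlapped, and on day 9 its means were 68.3 in WT and 6.10 in MUT. The remaining 3, Interval_143211, Interval_29814 and Interval_18153, had day 7 differences over the mean of the populations of -0.20, 0.15 and 0.05, and day 9 means of 207, 81.3 and 112 in WT against 26.7, 11.6 and 16.7 in MUT.

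**Figure D5:**
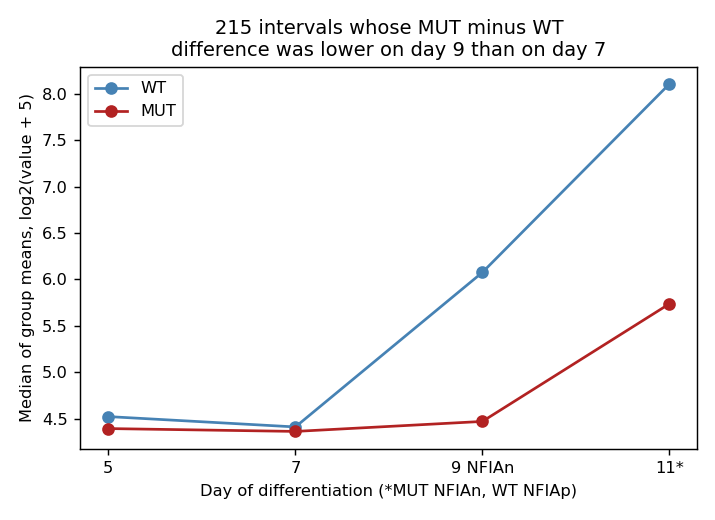
Median over 215 intervals of the mean log2(value + 5) of WT (blue) and MUT (red) groups, averaged over the populations (y axis, not starting at 0), on days 5, 7, 9 and 11 (x axis). The genotypes lie together on day 7, at 4.41 in WT and 4.36 in MUT, and apart on day 9, at 6.08 and 4.47; days 7 and 9 were used to choose the intervals.

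With the replicate variance removed, the root mean square MUT minus WT difference over all intervals on day 7 was 0.19, 0.16 and 0.12 on the log2 scale for p0-p1, p2 and pMN. The day 5 values were 0.18, 0.17 and 0.19, close to day 7 for p0-p1 and p2 and larger for pMN. Day 9 had 0.24, 0.24 and 0.29. On day 11 it was 0.54, 0.68 and 0.72, with the NFIA fraction changing as well. The pMN value of day 7 rests on 2 libraries a group, and no test of these sizes between days was made.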

How the data were processed

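The deposited table holds signal values: counts of reads in each consensus interval, scaled by the authors with a single size factor for each library. The build was mm10, per the submitters' processing notes, and the aligner, peak caller and counter are not given in the sources used here. Dividing by the step of each column returned whole reads within 0.01 for 100% of values; for 2 columns, neither of day 7, the step lay too near 1 to tell scaled from unscaled values.

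Values were analysed as log2(value + 5), which understates changes of low intervals, with limma 3.58.1 in R 4.3.3. The fit, with a trend of variance on level, took 69 libraries in 26 groups, leaving 43 residual degrees of freedom. Testing required a value of 10 or more in 2 or more libraries, met by 155734 of 155738 intervals. P-values were adjusted by Benjamini-Hochberg. All days and groups thus share 1 estimate of spread per interval. Replicate 3 of both day 7 pMN groups was left out. The script was tested on simulated data with known changes.

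Members, lists and rules were chosen with earlier results of these data known. Named intervals are, per population and for the mean, up to 5 rises and 5 falls with the largest change among calls at or above the median level whose libraries do not overlap between the genotypes. Runs less than 1000 intervals apart were joined into stretches after the values were seen.

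Replicate numbers paired the libraries: in p0-p1 and p2 all 6 correlations of deviations from the group mean between same-numbered MUT and WT libraries were above 0.1, from 0.176 to 0.275, and in pMN the correlation was 0.284. This is a hint from the data, since the labels do not say what a number marks. Counts from both blocks (the number within the day, or within genotype and day) stand beside a result where either moves it by over 1.5 times. Other settings were pseudocounts of 1 and 20, other filters and scalings, day 7 libraries only, blocks, leaving out each library or the runs, and edgeR 4.0.16 on recovered reads. Figures were drawn with matplotlib.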

Additional observations from a re-analysis of the deposited data

Results flagged for a closer look

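Where the MUT minus WT difference itself differed between days by limma's test of the difference, the counts were 5 intervals between day 5 and day 7 and 239 between day 7 and day 9, over the mean of the populations. No interval named by the rule was among them, and both comparisons share the day 7 libraries.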

How the results depend on the processing

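No named result reversed under the 28 other settings tried, of which the one without the runs could test only 17 of the 40. In edgeR and both replicate blocks all 40 named results stayed past the threshold. The 40 count an interval again for each comparison that names it. They were chosen for large changes without overlap between the genotypes, so a reversal was unlikely from the start. Counts follow in the order p0-p1, p2, pMN and mean, then day 7 minus day 5 and day 9 minus day 7, and the count among populations was 0 throughout. The pseudocount of 1 gave 787 for the mean and 15 for day 7 minus day 5, and that of 20 gave 65, 73, 80, 41, 0 and 107. A mean value of at least 30, with fewer intervals tested, gave 218 in p0-p1, 255 in p2, 114 for the mean and 2 for day 7 minus day 5. Quantile normalization gave 76 in pMN and equal totals 3 for day 7 minus day 5. Day 7 libraries alone, with 10 residual degrees of freedom, gave 264 in p0-p1 and 46 in pMN and cannot give the comparisons between days. Replicate 3 of both pMN groups put back gave 0 in pMN, 44 for the mean and 1 for day 7 minus day 5, and 10 of the 40 named results then missed the threshold. The replicate block gave 760 in pMN, 58 for day 7 minus day 5 and 430 for day 9 minus day 7, and moved no other count by over 1.5 times. The block within genotype gave 271 in pMN, 0 and 123 for the 2 comparisons of days. Without the runs there were 292, 277 and 78 in the populations and 2 for day 7 minus day 5. On recovered reads edgeR gave 668 in p2, 916 for the mean, 0 and 159 for the comparisons of days. Leaving out 1 library at a time gave 290 to 590, 253 to 558, 34 to 254, 171 to 276, 0 to 12 and 198 to 250. Except for runs and filters, which leave fewer intervals, and left-out libraries, the cause was not tested. The WT fallers' median on day 7 was 0.15, 0.13 and 0.13 for p0-p1, p2 and pMN with quantile normalization, and 0.28 and 0.24 for p0-p1 and pMN with equal totals. The risers' median in p0-p1 was -0.093 with quantile normalization. For intervals higher in WT pMN than in WT p0-p1 on day 5, quantile normalization gave 0.072 for p0-p1 and 0.14 for pMN, and equal totals gave 0.26 for pMN. For those lower, quantile normalization gave 0.11 for p0-p1. These 2 scalings of the lists were added after the data were seen. Where a pMN arm or other group has 2 libraries, a left-out library leaves 1, which is assumed to vary like the other groups. An interval at the median level carries 17.7% counting error, so small changes of low intervals are not detectable at this depth.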
